A study of Mus musculus with 6 samples.

Results

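The genes described here are those of the transforming growth factor beta (TGF-beta), bone morphogenetic protein (BMP) and activin pathways, chosen by symbol alone: every gene whose symbol starts with Tgfb, Smad, Acvr, Gdf or Inhb, or with Bmp followed by a number or r. They number 50 of the 19937 genes that could be named on the array. The rule uses no measured value, although it was set with earlier results of these data known. They were measured in 3 whole-kidney samples labelled NICD1 and in 3 whole-kidney control samples, 1 array each. NICD1 mice have the genotype Pax8rtTA TREICNotch1, a pair of transgenes in which a Pax8-driven reverse tetracycline transactivator switches on the intracellular part of Notch1, which signals without ligand, in tubule epithelial cells. The control mice were wild-type littermates with no transgene named. The sources used here do not give age, sex, the inducing agent, its duration or any pooling. RNA came from the whole organ, so that tubule, vessel, stroma and immune cells were measured together. The study was made to examine Notch activity in a kidney cancer. Of these 50 pathway genes 18 (36.0%) rose and 4 (8.0%) fell with the transgene, beside 17.8% and 14.9% of all genes.

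Ligands of this superfamily are secreted as dimers and bind a type II receptor, which activates a type I receptor. TGF-beta and activin signals then pass through Smad2 and Smad3, and BMP signals through Smad1, Smad5 and Smad9; both sets of Smads enter the nucleus with Smad4, while Smad6 and Smad7 inhibit them. In the kidney, TGF-beta is best known for driving the deposition of scar matrix after injury, and Bmp7 for keeping nephron progenitors alive during development.

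The promoters of 4 of these genes are shown because the genes differed between the genotypes: the ligand, the receptor and the other product that rose with the lowest p among those with a promoter entry, and the ligand that fell with the lowest p among them. Each run is the 250 bases before the annotated start, 5′ to 3′ on the gene's own strand, from RefSeq on build GRCm38.p6, and capitals mark CAGAC, the Smad-binding element, on either strand (GTCTG on the other).
Tgfb1, chr7:25686752-25687001, plus strand: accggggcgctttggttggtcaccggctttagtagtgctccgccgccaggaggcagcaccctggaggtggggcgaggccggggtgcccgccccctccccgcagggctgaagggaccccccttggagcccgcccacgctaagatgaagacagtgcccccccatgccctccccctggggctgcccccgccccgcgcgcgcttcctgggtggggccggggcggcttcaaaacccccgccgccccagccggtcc
Tgfbr1, chr4:47352972-47353221, plus strand: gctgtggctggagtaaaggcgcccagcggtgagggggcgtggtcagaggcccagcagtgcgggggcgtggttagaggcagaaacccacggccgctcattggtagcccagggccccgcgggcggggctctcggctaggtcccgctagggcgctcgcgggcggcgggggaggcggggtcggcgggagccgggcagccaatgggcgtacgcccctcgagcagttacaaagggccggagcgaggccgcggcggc
Tgfbi, chr13:56609336-56609585, plus strand: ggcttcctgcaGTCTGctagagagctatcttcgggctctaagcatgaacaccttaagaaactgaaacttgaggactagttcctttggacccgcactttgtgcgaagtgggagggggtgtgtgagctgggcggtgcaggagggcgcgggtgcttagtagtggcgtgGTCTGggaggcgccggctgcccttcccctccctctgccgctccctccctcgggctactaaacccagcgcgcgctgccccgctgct
Gdf10, chr14:33923337-33923586, plus strand: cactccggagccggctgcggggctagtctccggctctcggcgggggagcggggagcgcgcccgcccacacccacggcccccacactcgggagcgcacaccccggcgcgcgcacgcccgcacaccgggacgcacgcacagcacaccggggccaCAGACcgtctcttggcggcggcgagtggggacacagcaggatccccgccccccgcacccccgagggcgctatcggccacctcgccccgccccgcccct
Tgfbr1 has 2 annotated starts and the one farther upstream is shown. The core letters bound by Rbpj, which carries activated Notch to DNA, TGGGAA, were searched on both strands as well and do not occur in these 4 runs. The Tgfbi run holds the element at 2 places, both on the opposite strand, 239 to 235 and 85 to 81 bases before the start. The Gdf10 run holds it once, 98 to 94 bases before the start, and the Tgfb1 and Tgfbr1 runs do not hold it. Guanine and cytosine made up 75.2% of the Tgfb1 run and 52.4% of the median window. Over the 42 annotated windows of the 35 matched genes, TGGGAA occurred in 11 (26.2%), against 21.6% of all 32851 windows of this length. CAGAC occurred in 17 (40.5%) of the 42 windows, against 42.2% of all. The letters of both motifs can share bases where they adjoin. A match describes letters in a window and shows no binding.

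Notch1, the gene carried by the transgene, checks the labels. It stood at 10.29, 10.30 and 9.99 in NICD1 kidneys, against 6.65, 6.59 and 6.45 in control kidneys, with no overlap (log2 expression; NICD1 minus control 3.63, SE 0.12, limma adjusted p = 1.52e-07). Its single probe set does not separate transgene from endogenous transcript here. Array medians lay between 5.03 and 5.11 in NICD1 kidneys and between 4.93 and 4.99 in control kidneys. The sex-linked transcript Xist lay under the array median on all 6 arrays, and the Y-linked Eif2s3y and Uty overlapped between the groups, with means of 7.45 and 7.52 in NICD1 kidneys and 7.69 and 7.37 in control kidneys. The Y-linked Kdm5d did not overlap (6.52 in NICD1 and 6.19 in control kidneys, limma adjusted p = 0.0560). Kidney markers were present: Umod averaged 12.41 in NICD1 and 12.08 in control kidneys. All 6 proximal tubule markers fell, with a median difference of -3.60, with the lowest p for Slc22a6 (-5.51), Cubn (-2.72), Slc34a1 (-4.73) and Slc5a2 (-4.48). Of 5 thick limb and distal tubule markers 4 fell and Umod was called higher (0.32, limma adjusted p = 0.0403), and of 5 collecting duct markers 4 fell. Of 4 podocyte markers 2 fell and Synpo rose (1.09), and of 5 lymphocyte markers Cd8a (1.38) and Cd3e (0.30) rose and Ms4a1 (-0.45) fell. In bulk tissue, fewer cells of a type and less RNA per cell cannot be told apart, for any gene described here.

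Values are log2 expression after the authors' normalization, in which a difference of 1 is a doubling, and each difference is NICD1 minus control. Calls rest on limma, which borrows strength across genes to estimate each variance, at a Benjamini-Hochberg adjusted p under 0.05 over all 19937 genes. The 18 of 50 genes called higher (36.0%) stand beside a background of 17.8% of all genes, and the 4 called lower (8.0%) beside 14.9%. These shares of all genes, 17.8% and 14.9%, are also the background for each count by role or list below. In either direction 22 genes (44.0%) were called, against 32.7% of all genes. Among the 22 called pathway genes 81.8% were higher, against 54.4% of all called genes. The median difference was 0.10 over the 50 genes and 0.01 over all genes. At a minimum of 2-fold, 8 genes rose and 1 fell, against 4.65% and 5.3% of all genes. For 24 genes (48.0%) the NICD1 and control arrays did not overlap, against 43.4% of all genes, a share close to the background. Centring arrays on their medians, taken over the 28187 probe sets kept and not over the genes, lowered every difference by the same amount. The median of all genes was then -0.09, in place of 0.01 without centring. After centring 15 pathway genes were higher and 6 lower, beside 13.1% and 18.6% of all genes.

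**Figure D1:**
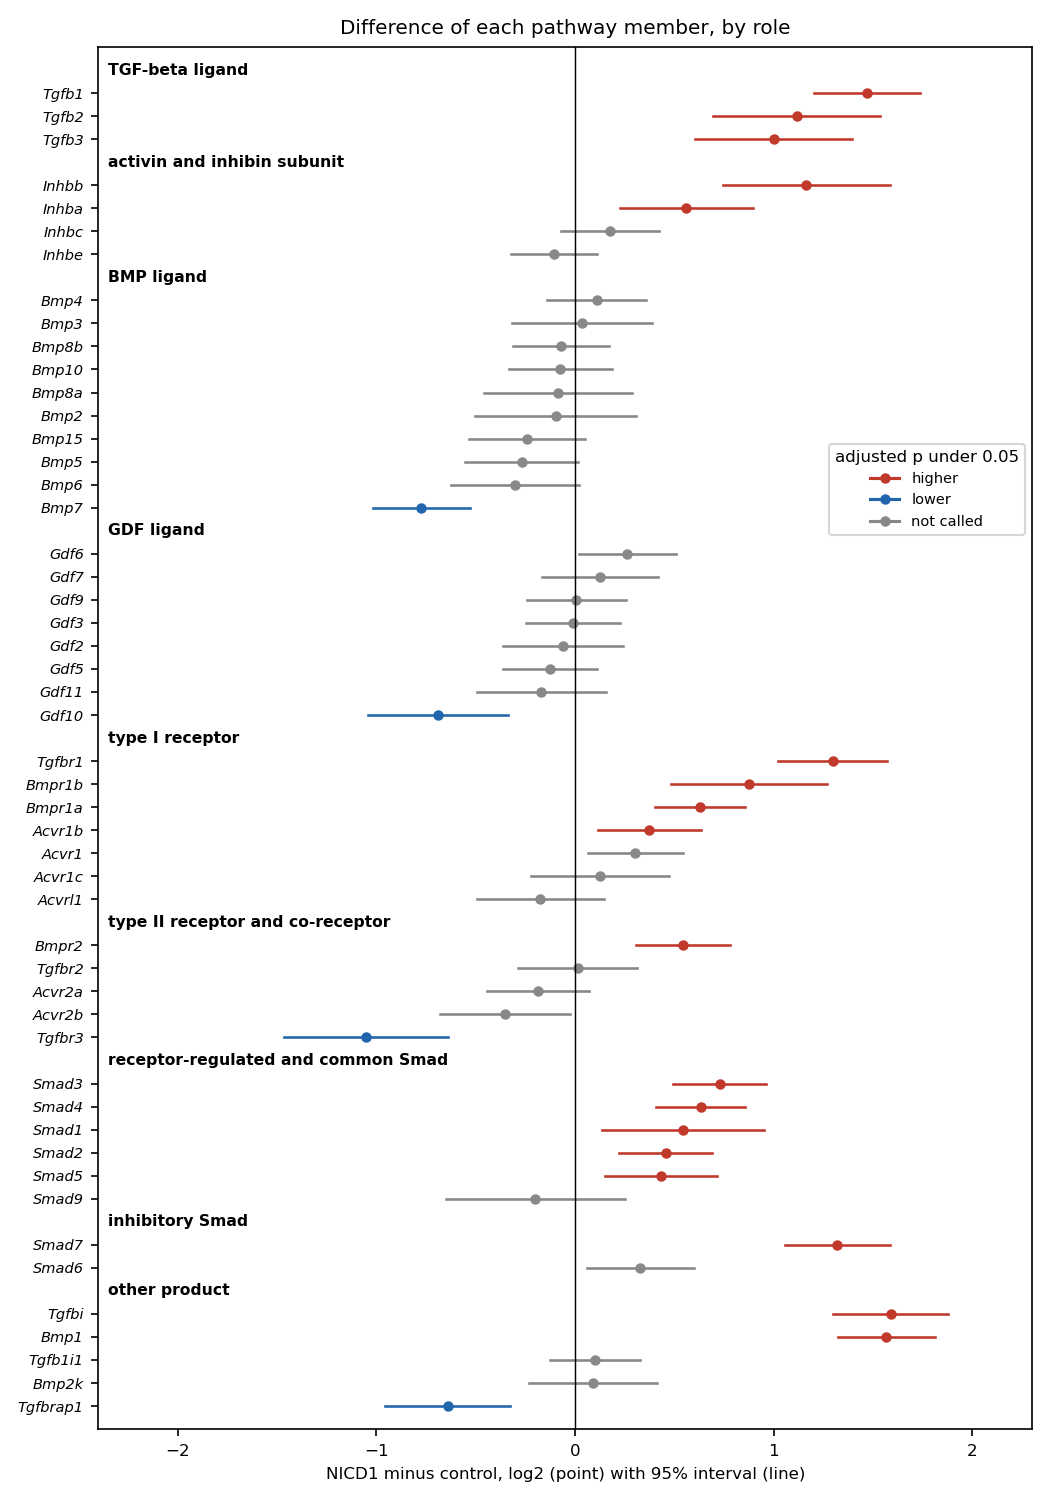
Difference of each of the 50 pathway genes, NICD1 minus control on the log2 scale (horizontal axis), grouped by role from top to bottom. Points are the fitted differences, lines their 95% intervals, red higher, blue lower and grey not called at adjusted p under 0.05; the 3 TGF-beta ligands lie between 1.0 and 1.47 and the 10 BMP ligands between -0.77 and 0.11.

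All 3 TGF-beta ligand genes rose in NICD1 kidneys. Tgfb1, the isoform most tied to fibrosis, stood at 7.55, 7.19 and 7.34 in NICD1 kidneys, against 5.83, 5.85 and 5.98 in control kidneys. Every NICD1 array lay above every control array, and the means were 7.36 ± 0.18 in NICD1 and 5.89 ± 0.08 in control kidneys (SD, n = 3 each). The rise was 2.77-fold (1.47 log2, SE 0.12, limma adjusted p = 1.59e-05). Tgfb2, an isoform that needs the co-receptor betaglycan for efficient binding, stood at 6.11, 5.37 and 5.45 in NICD1 kidneys, against 4.38, 4.66 and 4.55 in control kidneys. The groups did not overlap, NICD1 replicate 1 was the highest of all, and the rise was 2.17-fold (1.12 log2, SE 0.19, limma adjusted p = 0.00139). Tgfb3, the third isoform, stood at 5.29, 5.33 and 5.17 in NICD1 kidneys, against 4.56, 3.83 and 4.39 in control kidneys. The groups did not overlap. Its NICD1 values were closely grouped and its control values spread over a wider range, with control replicate 2 the lowest, and the difference was 1.0 log2 (SE 0.18, limma adjusted p = 0.00180). Without any single array the differences of Tgfb2 and Tgfb3 stayed at or above 0.88 and 0.78.

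Of the 4 activin and inhibin beta subunit genes, 2 rose. Inhbb, which encodes the subunit of activin B, stood at 6.13, 5.62 and 5.65 in NICD1 kidneys, against 4.96, 4.34 and 4.59 in control kidneys. The groups did not overlap and the rise was 2.24-fold (1.16 log2, SE 0.19, limma adjusted p = 0.00103). Inhba, the activin A subunit, averaged 4.78 ± 0.24 in NICD1 and 4.22 ± 0.18 in control kidneys (SD, n = 3 each), a difference of 0.56 (limma adjusted p = 0.0162). All its values lay under the array medians, and its call was lost without NICD1 replicate 2 (limma adjusted p = 0.0627) or control replicate 2 (limma adjusted p = 0.0702). The liver-expressed subunit genes Inhbc and Inhbe differed by 0.18 and -0.11 and were not called.

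No gene for a BMP or growth differentiation factor (GDF) ligand was called higher, and 2 were called lower. Of 10 BMP ligand genes 0 were called higher in limma and 1 lower, and that 1 alone had an unadjusted p under 0.05. Of 8 GDF genes 0 were called higher and 1 lower, and 2 had an unadjusted p under 0.05. Bmp7, a ligand made by the tubule itself, stood at 6.19, 6.02 and 5.89 in NICD1 kidneys, against 6.79, 6.80 and 6.83 in control kidneys. The control values lay almost on top of each other and above every NICD1 value, and the fall was 1.71-fold (-0.77 log2, SE 0.11, limma adjusted p = 0.000476). The summed level of the collecting duct markers lay between 5.74 and 6.59 in NICD1 and between 7.85 and 7.97 in control kidneys (log2 of the mean linear value). That of the thick limb and distal tubule markers lay between 10.22 and 10.28 in NICD1 and between 10.69 and 10.80 in control kidneys. Umod, the brightest of the latter (12.41 in NICD1 and 12.08 in control kidneys), rose and weighs most in that mean. The other 4 fell, with differences from -2.38 (Slc12a3) to -4.15 (Calb1). The part of both marker sets in the level of Bmp7 was not tested. Gdf10, also known as BMP3b, stood at 5.14, 5.64 and 5.16 in NICD1 kidneys, against 6.12, 6.07 and 5.80 in control kidneys. The groups did not overlap, although NICD1 replicate 2 came close to control replicate 3, and the fall was 1.61-fold (-0.69 log2, SE 0.16, limma adjusted p = 0.00742). Bmp4, a ligand with a role in ureter development, overlapped between the groups at 7.09 ± 0.15 in NICD1 and 6.99 ± 0.07 in control kidneys (SD, n = 3 each; difference 0.11, 95% interval -0.14 to 0.36). Bmp6, the iron-regulating ligand, averaged 6.69 ± 0.27 in NICD1 and 6.99 ± 0.10 in control kidneys (difference -0.30, limma adjusted p = 0.152). It was called lower without NICD1 replicate 3, the array at 6.97 (-0.44, limma adjusted p = 0.0229), and after centring (-0.41, limma adjusted p = 0.0392). The other 7 BMP genes were not called, with differences between -0.27 and 0.04: the bone-forming Bmp2 and Bmp5, Bmp3, which opposes them in bone, Bmp8a and Bmp8b of the germ line, Bmp10 of the heart and Bmp15 of the oocyte. Bmp5 was called lower without control replicate 1 (-0.38, limma adjusted p = 0.0438). Among GDF genes, those of joint and skeletal patterning, Gdf5 (-0.13), Gdf6 (0.26) and Gdf7 (0.12), were not called, although Gdf6 did not overlap between the groups. Nor were the oocyte factor Gdf9 (0.01), Gdf3 of the early embryo (-0.01), Gdf2, the circulating ligand also called BMP9 (-0.06), and Gdf11, an axial patterning factor (-0.17).

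Many ligand genes that were not called were dim. Below the median on all 6 arrays lay 15 of the 50 genes, and 1 of these 15 (6.67%) was called, beside 6.26% of all genes under every median. Of the 30 that lay above every array median 18 (60.0%) were called, beside 49.3% of all such genes. The dim set held 6 of the 10 BMP and 5 of the 8 GDF ligand genes, Bmp2 and Bmp5 among them. The arrays carry no detection calls here, so a dim gene may be below detection. Tgfb2, Tgfb3 and Inhbb lay under the array median on the 3 control arrays only, so the sizes of their rises are uncertain.

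**Figure D2:**
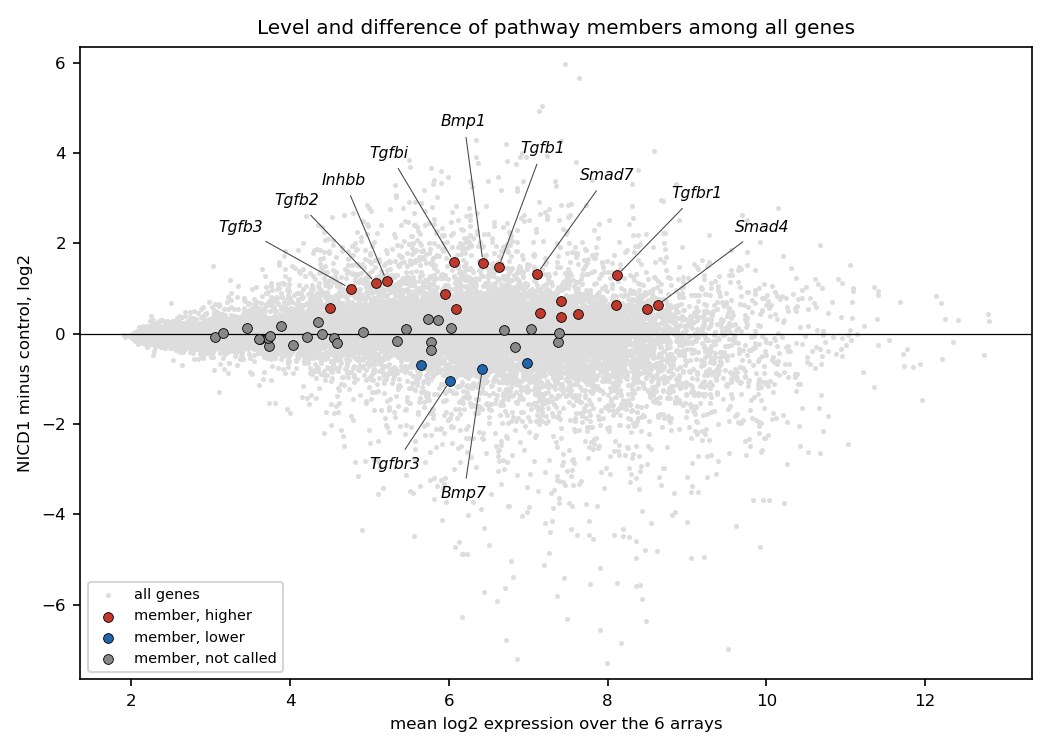
Mean log2 expression over the 6 arrays (horizontal axis) against the NICD1 minus control difference in log2 (vertical axis), with all 19937 genes in light grey and the 50 pathway genes on top, red higher, blue lower and dark grey not called. Pathway genes lie within differences of -1.05 to 1.59 while all genes span -7.30 to 5.98, and 14 of the 28 genes not called lie under every array median.

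Receptor genes moved unequally. Of 7 type I receptors 4 rose and 3 were not called; of the 4 type II receptors and the co-receptor betaglycan 1 rose and 1 fell. Tgfbr1, the type I receptor for TGF-beta, stood at 8.95, 8.81 and 8.55 in NICD1 kidneys, against 7.40, 7.51 and 7.51 in control kidneys. All NICD1 values lay more than 1 log2 unit above all control values, and the rise was 2.46-fold (1.30 log2, SE 0.12, limma adjusted p = 4.06e-05). Tgfbr2, the type II receptor that TGF-beta binds first, stood at 7.31, 7.58 and 7.30 in NICD1 kidneys, against 7.16, 7.54 and 7.46 in control kidneys. The groups overlapped, and the difference was 0.01 with a 95% interval of -0.29 to 0.31. Tgfbr3, which encodes betaglycan, stood at 5.21, 5.96 and 5.30 in NICD1 kidneys, against 6.63, 6.51 and 6.48 in control kidneys. NICD1 replicate 2 was nearest to the control values without reaching them, and the fall was 2.07-fold (-1.05 log2, SE 0.18, limma adjusted p = 0.00174). It was the only pathway gene at least 2-fold lower.

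The receptor genes named Bmpr rose while several of those named Acvr were not called. Bmpr1a, the widely expressed type I receptor for BMPs, stood at 8.48, 8.37 and 8.42 in NICD1 kidneys, against 7.89, 7.81 and 7.68 in control kidneys. The 2 groups were narrow and apart, with a 1.55-fold rise (0.63 log2, SE 0.10, limma adjusted p = 0.00104). Bmpr2, the BMP type II receptor, stood at 8.77, 8.88 and 8.64 in NICD1 kidneys, against 8.17, 8.30 and 8.19 in control kidneys. It too showed no overlap and rose 1.46-fold (0.54 log2, SE 0.11, limma adjusted p = 0.00324). Bmpr1b, a type I receptor of narrower expression, averaged 6.39 ± 0.35 in NICD1 and 5.52 ± 0.16 in control kidneys (SD, n = 3 each; 0.87 log2, limma adjusted p = 0.00368), with NICD1 replicate 1 highest at 6.78. Acvr1b, the activin type I receptor, rose by 0.37 (limma adjusted p = 0.0318), with 7.60 ± 0.13 in NICD1 and 7.22 ± 0.12 in control kidneys (SD, n = 3 each). That call was lost after centring (0.27, limma adjusted p = 0.150), with the replicate block (limma adjusted p = 0.0581) and without any array other than NICD1 replicate 3 (0.30 to 0.42). Acvr1, a BMP and activin type I receptor, did not overlap between the groups but narrowly missed the threshold, at 6.01 ± 0.11 in NICD1 and 5.71 ± 0.10 in control kidneys (difference 0.30, limma adjusted p = 0.0554). Acvr1 passed only with array weights (limma adjusted p = 0.0468) and without the dimmest 40% of genes (limma adjusted p = 0.0392). The activin type II receptors Acvr2a and Acvr2b differed by -0.19 and -0.35 and were not called, and Acvr2b passed as lower after centring (-0.46, limma adjusted p = 0.0397) and after quantile normalization (-0.45, limma adjusted p = 0.0374). Acvrl1, the endothelial type I receptor, and Acvr1c, a dim type I receptor for activin and Nodal, differed by -0.17 and 0.12. Of the 6 endothelial markers 4 fell, with Cdh5 not called (-0.04), and their summed level lay between 5.48 and 6.45 in NICD1 and between 7.10 and 7.15 in control kidneys (log2 of the mean linear value). Their part in the levels of Acvrl1 and Tgfbr3 was not tested.

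**Figure D3:**
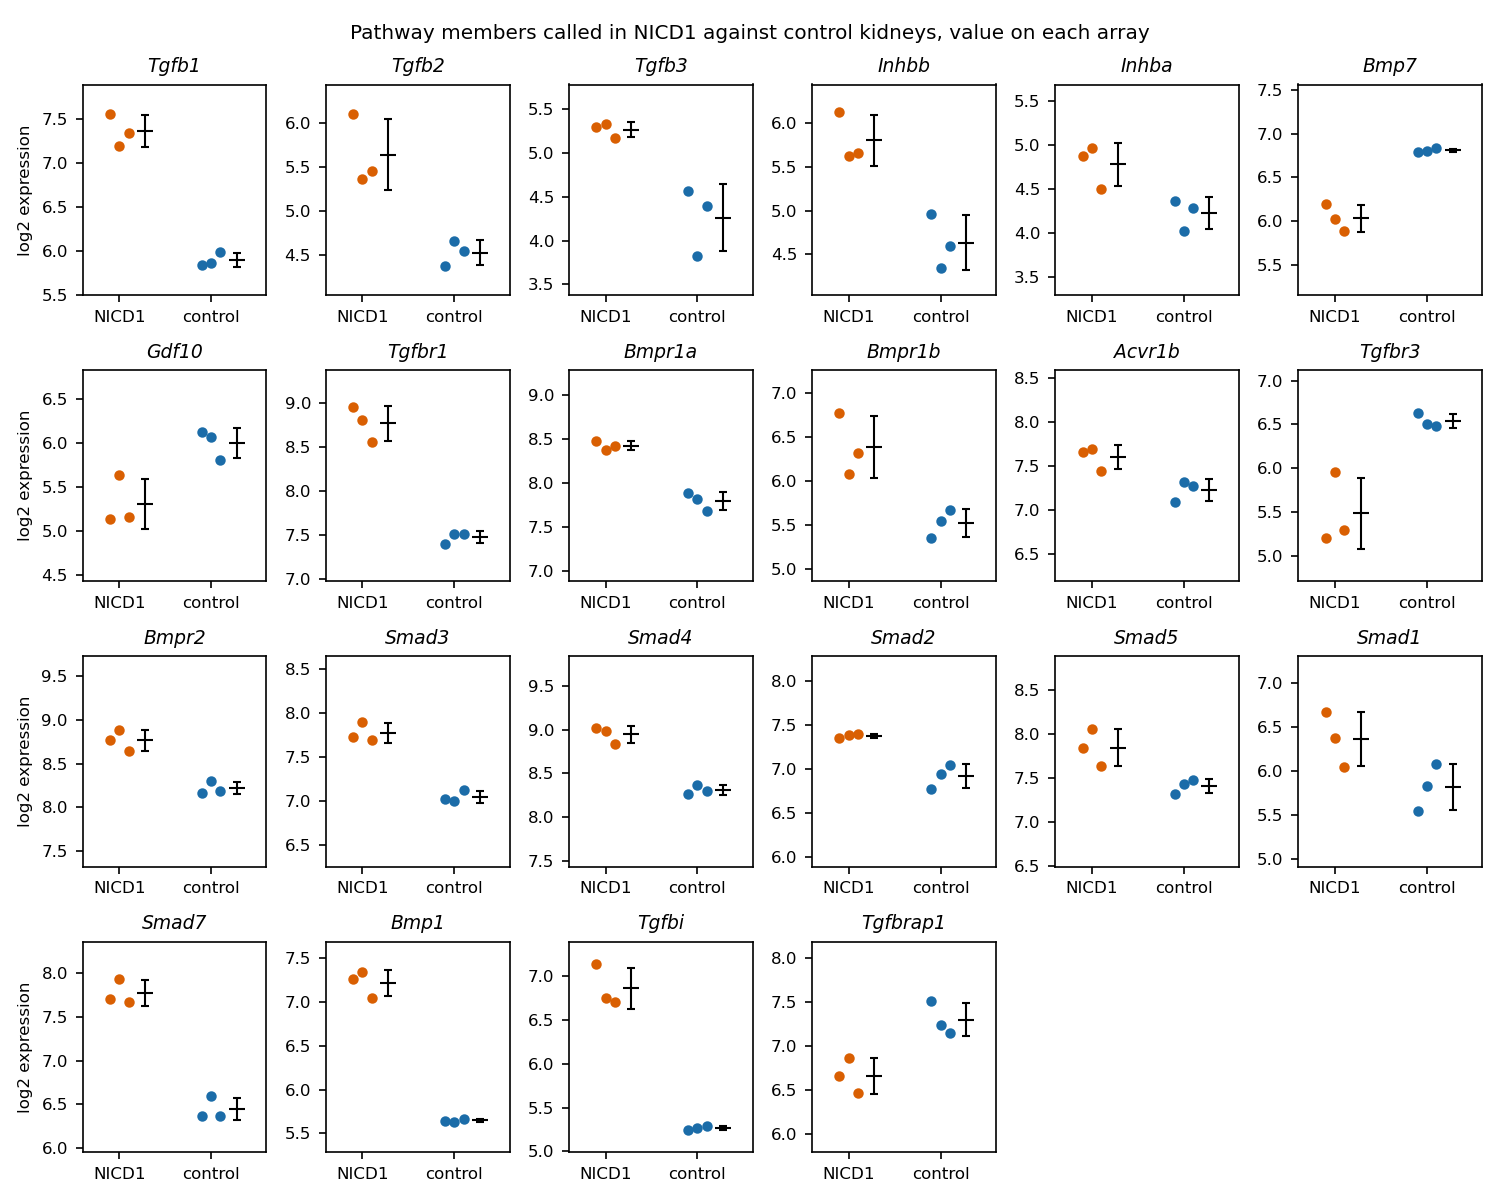
Log2 expression (vertical axis, 2.4 units high in every panel) of the 22 called pathway genes on each array, NICD1 in orange left of control in blue, with replicates 1 to 3 from left to right and the mean and SD beside them in black. The groups are apart in all panels except Smad1, where NICD1 replicate 3 (6.04) lies below control replicate 3 (6.07).

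Smad genes of the TGF-beta branch and the common Smad4 rose, and the inhibitor Smad7 rose most among the Smads. Of the 6 receptor-regulated and common Smads 5 rose and 1 was not called, and of the 2 inhibitory Smads 1 rose. Smad7, which is induced by TGF-beta and blocks its receptor, stood at 7.70, 7.93 and 7.67 in NICD1 kidneys, against 6.37, 6.59 and 6.37 in control kidneys. The groups lay more than 1 log2 unit apart, and the rise was 2.50-fold (1.32 log2, SE 0.12, limma adjusted p = 2.78e-05). Smad3, the DNA-binding Smad of the TGF-beta branch, stood at 7.72, 7.90 and 7.69 in NICD1 kidneys, against 7.02, 7.0 and 7.13 in control kidneys. It rose 1.66-fold without overlap (0.73 log2, SE 0.10, limma adjusted p = 0.000521). Smad4, the common partner, stood at 9.01, 8.98 and 8.84 in NICD1 kidneys, against 8.26, 8.37 and 8.30 in control kidneys, and rose 1.55-fold (0.63 log2, SE 0.10, limma adjusted p = 0.000958). Smad2, the other TGF-beta Smad, stood at 7.36, 7.38 and 7.40 in NICD1 kidneys, against 6.78, 6.95 and 7.05 in control kidneys, and rose 1.37-fold (0.46 log2, SE 0.10, limma adjusted p = 0.00815). Both had NICD1 values above every control value.

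The BMP Smads were less firmly placed. Smad5 averaged 7.84 ± 0.21 in NICD1 and 7.41 ± 0.08 in control kidneys (SD, n = 3 each; 0.43 log2, limma adjusted p = 0.0252), and its call was lost after centring (0.33, limma adjusted p = 0.105) and without any array other than NICD1 replicate 3 (0.33 to 0.47). Smad1 stood at 6.67, 6.37 and 6.04 in NICD1 kidneys, against 5.55, 5.83 and 6.07 in control kidneys, so the groups overlapped. Its difference of 0.54 (SE 0.18, limma adjusted p = 0.0448) lost its call after centring (0.44), quantile normalization (0.45), with the replicate block and with every probe set as a feature. It also did so without NICD1 replicate 1 (0.39), NICD1 replicate 2 (0.54), control replicate 1 (0.41) or control replicate 2 (0.55). Smad9, the third BMP Smad, lay at 4.49 ± 0.10 in NICD1 and 4.69 ± 0.46 in control kidneys and was not called. Smad6, the inhibitor of the BMP branch, had NICD1 values of 5.98, 5.89 and 5.82 above control values of 5.77, 5.53 and 5.41, yet did not pass (difference 0.33, limma adjusted p = 0.0638). It passed only without control replicate 1 (0.43, limma adjusted p = 0.0241), with array weights (limma adjusted p = 0.0282) and without the dimmest 40% of genes (limma adjusted p = 0.0466).

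Among genes that carry the family name without being ligands, receptors or Smads, 2 rose and 1 fell. Tgfbi, a secreted matrix protein named for its induction by TGF-beta, stood at 7.13, 6.74 and 6.70 in NICD1 kidneys, against 5.25, 5.27 and 5.30 in control kidneys. It had the largest rise of the 50 genes, 3.01-fold (1.59 log2, SE 0.13, limma adjusted p = 1.65e-05). Bmp1, which despite its name is the metalloproteinase that trims procollagens into fibril-forming collagens, stood at 7.26, 7.33 and 7.04 in NICD1 kidneys, against 5.64, 5.63 and 5.66 in control kidneys. Its control values differed by less than 0.1, and its rise of 2.96-fold had the lowest p of the 50 genes (1.57 log2, SE 0.11, limma adjusted p = 6.39e-06). Tgfbrap1, a protein that associates with TGF-beta receptors, stood at 6.65, 6.86 and 6.46 in NICD1 kidneys, against 7.51, 7.24 and 7.15 in control kidneys, and fell 1.56-fold (-0.64 log2, SE 0.14, limma adjusted p = 0.00609). The groups did not overlap for any of these 3 genes. Tgfb1i1, the focal adhesion protein Hic-5, and the kinase Bmp2k differed by 0.10 and 0.09 and were not called.

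The rises were not even over the NICD1 kidneys. Replicate 1 was the highest NICD1 array for 9 of the 18 higher genes and replicate 2 for 8, while replicate 3 was the highest for 1 and the lowest for 12. This order was not counted over all genes, so it is not shown to be particular to the pathway. Notch1 was also lowest in NICD1 replicate 3 (10.29, 10.30 and 9.99 in replicates 1 to 3). For the 4 lower genes, replicate 2 lay nearest to control levels in 3. Replicate spread was close to that of the array as a whole: the median SD over the 50 genes was 0.15 in NICD1 and 0.12 in control kidneys, against 0.14 and 0.12 over all genes.

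Genes outside the symbol rule that act in the same pathways were taken as 6 lists with 89 genes, of which 84 were measured. Of these 33 rose, 7 fell and 44 did not pass, or 39.3% and 8.33%, beside 17.8% and 14.9% of all genes, with a median difference of 0.16. Extracellular antagonists moved in opposite directions: 7 of 22 rose, 2 fell and 13 missed the threshold (median 0.08). Sostdc1, a BMP and Wnt antagonist of the distal nephron, averaged 6.54 ± 0.08 in NICD1 and 8.10 ± 0.18 in control kidneys (SD, n = 3 each; -1.56 log2, limma adjusted p = 1.15e-05). The BMP antagonist Chrdl1 fell by 1.55 (limma adjusted p = 0.000104). Crim1, a transmembrane protein that binds BMPs, rose by 1.14 (limma adjusted p = 2.71e-05), and the BMP modulator Twsg1 rose by 0.96 (limma adjusted p = 9.91e-05). Fstl1, a follistatin-like glycoprotein named here after its value was seen, had the largest rise of the list (2.32 log2, limma adjusted p = 0.000130), with 8.99, 7.98 and 7.79 in NICD1 kidneys, against 5.91, 5.96 and 5.93 in control kidneys.

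TGF-beta is secreted in a latent complex. Of 13 measured genes listed under its latency and activation, 6 rose, 3 fell and 4 missed the threshold (median 0.17). The 2 integrin beta subunits of the list moved in opposite directions, while Itgav, the alpha subunit that pairs with both, was not called (0.05, 95% interval -0.16 to 0.26). Itgb6, of the epithelial integrin that activates latent TGF-beta, stood at 9.47, 9.63 and 9.84 in NICD1 kidneys, against 8.26, 8.27 and 7.95 in control kidneys, a 2.80-fold rise (1.49 log2, SE 0.13, limma adjusted p = 3.24e-05). Itgb8, of a second activating integrin, stood at 8.63, 8.53 and 8.72 in NICD1 kidneys, against 9.85, 9.81 and 9.78 in control kidneys, a 2.27-fold fall (-1.18 log2, SE 0.10, limma adjusted p = 2e-05). Neither overlapped between the groups. Thrombospondin 1 (Thbs1), a matrix protein that also activates latent TGF-beta, rose by 2.0 (limma adjusted p = 0.000170). The genes named Ltbp, for latent TGF-beta binding protein, were split, and the name alone does not show that each product binds TGF-beta. Ltbp3 rose by 0.69 (limma adjusted p = 0.00153) and Ltbp2 by 0.58 (limma adjusted p = 0.00194). Ltbp1 (-0.68, limma adjusted p = 0.0040) and Ltbp4 (-0.45, limma adjusted p = 0.0451) fell. The call of Ltbp4 was lost with array weights (limma adjusted p = 0.0906), among other alternatives. Of 10 other ligands, receptors and co-receptors 2 rose and 8 were not called. Those that rose were the BMP co-receptors Rgmb (0.55, limma adjusted p = 0.00653) and Rgma (0.49, limma adjusted p = 0.00954), while the decoy receptor Bambi (0.30), the Amh receptor Amhr2 (0.18) and the TGF-beta co-receptor endoglin (Eng, -0.20) did not pass.

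Of 19 intracellular regulators 6 (31.6%) rose, 1 (5.26%) fell and 12 did not pass (median 0.22), beside 17.8% and 14.9% of all genes. All 19 lay above every array median, and 7 of them were called, beside 49.3% of all such genes. Tgif1, a repressor that binds Smad2, averaged 8.02 ± 0.04 in NICD1 and 6.43 ± 0.17 in control kidneys (SD, n = 3 each), a rise of 1.59 (limma adjusted p = 8.02e-06). The Smad repressor Ski rose by 0.67 (limma adjusted p = 0.000661) and the ubiquitin ligase Nedd4l, which degrades activated Smad2 and Smad3, by 0.90 (limma adjusted p = 0.000266). The sorting nexin Snx6, which binds receptors of the family, fell by 1.09 (limma adjusted p = 9.65e-05).

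Of 10 measured genes commonly induced by TGF-beta 9 rose and 1, Itga11 (0.16), did not pass, with a median difference of 1.18 against 0.01 over all genes. Leaving out 1 array gave 7 to 9 higher: Acta2 lost its call without NICD1 replicate 1, NICD1 replicate 2 or control replicate 2 (0.70, 0.90 and 0.73), and Postn, under the median on all 6 arrays, without NICD1 replicate 2 or control replicate 2 (0.61 and 0.70). The 4 with the lowest p were matrix genes: Fn1, Col1a1, Col3a1 and Col1a2 rose by 2.84, 2.96, 2.01 and 2.20. Among 10 genes commonly induced by BMPs 3 rose, 1 fell and 6 missed the threshold (median 0.05). Id4 averaged 9.50 ± 0.06 in NICD1 and 7.91 ± 0.21 in control kidneys (SD, n = 3 each; 1.59 log2, limma adjusted p = 1.36e-05), Id1 rose by 1.17 (limma adjusted p = 0.000146), Id3 rose by 0.65 (limma adjusted p = 0.0287) and Id2 fell by 0.37 (limma adjusted p = 0.0179). These Id genes encode inhibitors of basic helix-loop-helix transcription factors. The call of Id3 was lost after centring and without NICD1 replicate 2 or any 1 control array, and that of Id2 after quantile normalization and without NICD1 replicate 2, control replicate 1 or control replicate 3.

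Markers of matrix-producing and immune cells moved with these genes. Of 7 fibroblast and myofibroblast markers 5 rose, with a summed level between 8.26 and 8.95 in NICD1 and between 7.0 and 7.23 in control kidneys (log2 of the mean linear value); Col1a1, Acta2 and Postn stand in this list and in the list of genes induced by TGF-beta. Col1a1, Vim, Pdgfrb and Postn rose by 2.96, 2.0, 0.70 and 0.77, while Pdgfra (-0.07) and Dcn (-0.77) were not called. In NICD1 kidneys Col1a1 (10.15) and Vim (9.72) were the brightest of the 7 and weigh most in that summed level. Of 6 macrophage markers 5 rose, led by Lyz2 (3.94), Itgam (2.41), C1qa (2.21) and Cd68 (1.73), and Csf1r was not called (-0.05). Their summed level lay between 7.20 and 8.14 in NICD1 and between 5.56 and 5.59 in control kidneys. Lyz2 weighs most in that mean in NICD1 kidneys (9.20, against 5.26 in control kidneys), and Csf1r (7.24) weighs most in control kidneys. Tgfb1 and Tgfbi are also made by macrophages and fibroblasts, and the part of these cells in their levels was not tested.

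**Figure D4:**
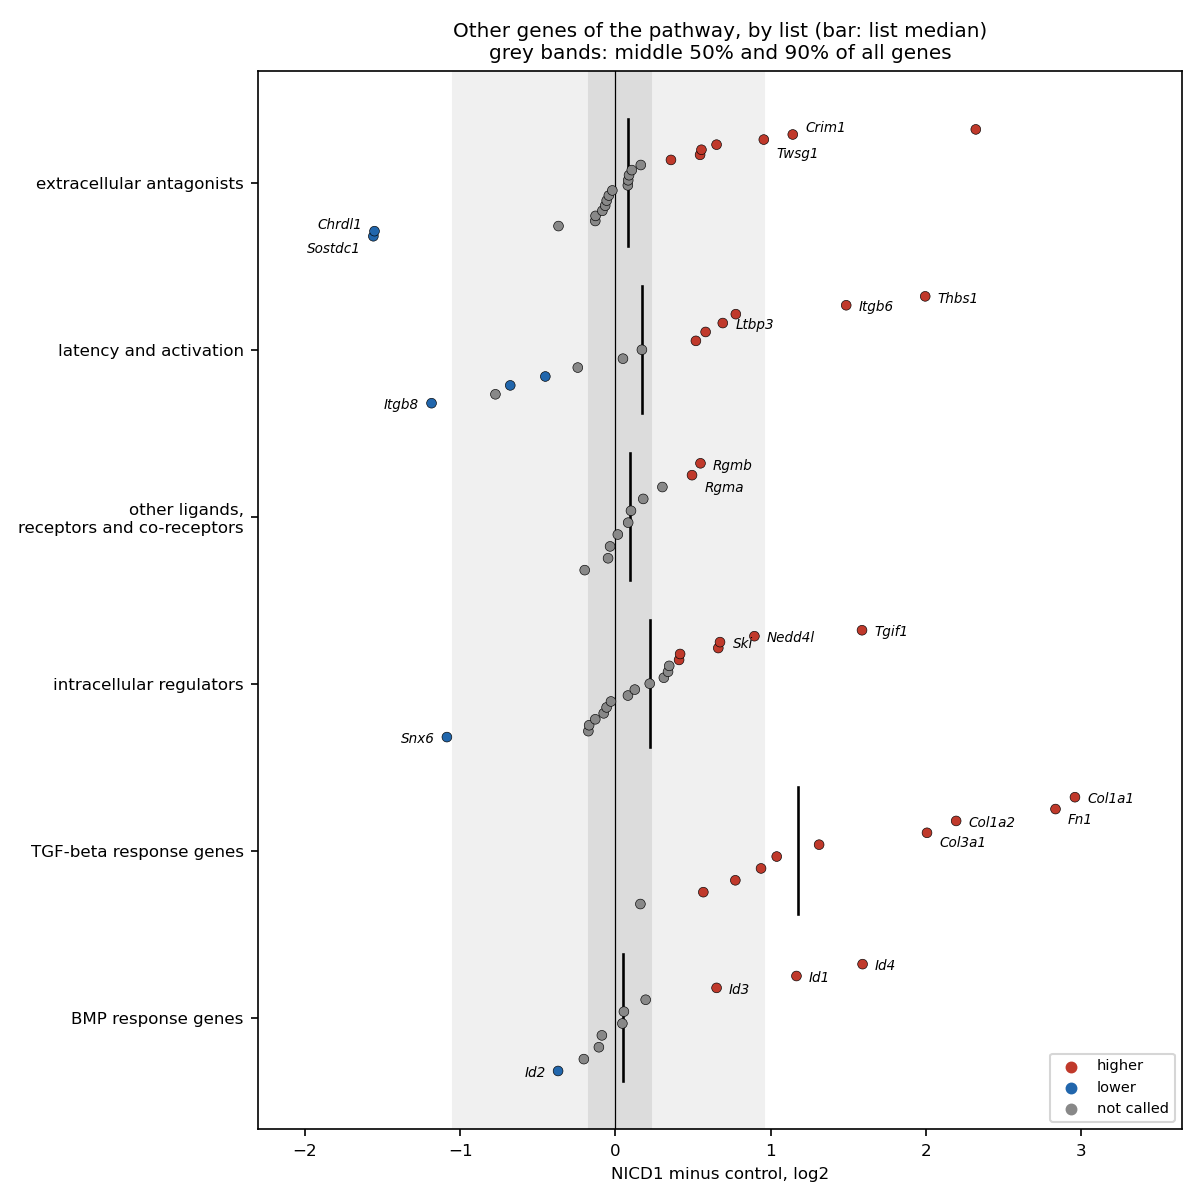
NICD1 minus control differences in log2 (horizontal axis) of the 84 measured genes in 6 lists of other pathway genes, red higher, blue lower and grey not called, with the list median as a black bar and the middle 50% and 90% of all genes as grey bands. The list of genes induced by TGF-beta has its median at 1.18, and the other 5 medians lie between 0.05 and 0.22.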

How the data were processed

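Gene expression was measured in whole-kidney total RNA in 3 NICD1 and 3 control samples, 1 Affymetrix array each. Per the labels' protocols, the RNA was labelled with a one-cycle kit and raw files were normalized in GeneSpring with RMA16. The table the authors deposited holds log2 expression values per probe set, 34760 in all. RMA compresses differences of dim genes and largely removes a shift common to all genes. 6573 probe sets numbered below the lowest annotated one, in the range used for control features, were left out. For each gene, the probe set with a single symbol in the platform annotation (which can be old) and the highest mean over the 6 arrays was taken. All 50 pathway genes had 1 such probe set and matched a RefSeq gene of GRCm38.p6, used for names and promoters. 1 further probe set carries a symbol of the family beside another gene's and was not named. No coordinates of probe sets are given.

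NICD1 was compared with control in limma 3.58.1 (R 4.3.3), two-sided, with Benjamini-Hochberg adjustment over 19937 genes. Adjusted p-values come from this fit, or from limma under the alternative named beside them. The procedure was also run on simulated data with independent noise per gene and few shifted genes. In the measured data 32.7% of genes were called, so that run does not show how the calls behave here. Lists were described by counts and medians, with no set test. With 3 arrays a group the number of arrays limits precision, and an exact permutation test cannot go below p = 0.1. The labels do not say that replicates are separate mice, so the p-values measure the spread between these samples. No pairing by replicate number was visible: correlations of same-numbered deviations from the group means were -0.07, -0.01 and -0.07. With 3 arrays a group these correlations cannot exclude a pairing. Scan batches are not given in the sources used here.

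Pathway genes and lists were chosen with earlier results of these data known. Named from each role were all called genes, with array values for the 4 of lowest p among ligands, receptors and Smads; from each other list up to 4 genes of lowest p were named, and other names in the text were added after values were seen. Alternatives were another summary of probe sets, every probe set as a feature, quantile normalization, centring, a filter on the dimmest 40% of genes, array weights, a variance trend with robust fitting, an adjusted p under 0.01, a 2-fold minimum, the replicate block and leaving out each array.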

Additional observations from a re-analysis of the deposited data

How the results depend on the processing

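No pathway gene reversed a called direction under any alternative. Of the 18 genes called higher, 14 were called higher, and all 4 lower genes lower, under each of the 13 alternatives that kept the threshold and all genes; the other 4 were Acvr1b, Inhba, Smad1 and Smad5. Leaving out each array gave 14 to 18 higher and 4 to 5 lower, while 26.5% to 31.5% of all genes were called in either direction. With an adjusted p under 0.01, 14 were higher and 4 lower, beside 2398 higher and 2188 lower of all 19937 genes. The list of antagonists then kept 4 higher genes and the BMP-induced list 0 lower. At a minimum of 2-fold, 8 pathway genes were higher and 1 lower, beside 4.65% and 5.3% of all genes. Of the 84 other pathway genes 13 were higher and 4 lower at that minimum. By list this left 2 antagonists, 1 intracellular regulator, 2 latency genes and 0 other receptors higher. It left 1 latency gene and 0 BMP-induced genes lower. The 1 lower BMP-induced gene, Id2, was also not called after quantile normalization (0), and leaving out each array gave 0 to 1. Without the dimmest 40% of genes the median difference of the 34 pathway genes left was 0.35, because the dim genes that were not called had gone. With the replicate number as a block, 16 were higher and 4 lower, losing Acvr1b and Smad1. Of all 19937 genes 3219 were then higher and 2762 lower. No pairing by number was visible in the data, and no NICD1 replicate correlated best with the control of its own number. Dimness limits what can be said of the 15 genes under every array median, and of the sizes of the rises of Tgfb2, Tgfb3 and Inhbb.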
